A study of Homo sapiens with 10 samples.

Results

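The 40 genes described here encode proteins that carry a cell through mitosis, the division of the nucleus, and through cytokinesis, the division of the cell body. They were taken by symbol from a list of genes for mitotic entry, the spindle, the kinetochore, the exit from mitosis and the final cut between daughter cells, by a rule that sets no threshold on a measured value. All 40 were found among the 58222 genes of the deposited table. All 40 were also among the 15167 genes tested, which reached at least 1 TPM in at least 2 libraries. TPM give each gene as a share of all transcripts in its library, scaled to a fixed total after correction for transcript length. RNA was sequenced from OVCAR-3, an established human cell line derived from an ovarian adenocarcinoma and grown in RPMI medium with serum, in 5 groups of 2 biological replicates. Control cells stayed in standard culture. Silica gel, a porous mineral matrix that encloses the cells, held the Day1 group for 24 hours and the Day3 group for 3 days. The Extracted group lived through 3 days of gel and was then returned to standard culture for 2 weeks. The Treated group lived through cisplatin, which crosslinks DNA, at 0.5 uM over 24 hours, and was then left for 2 weeks as well. Both recovered groups therefore hold survivors and their progeny, and the labels do not say how long Control cells had been in culture.

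Entry into mitosis is driven by the kinase CDK1 bound to a B-type cyclin, and exit follows when the anaphase-promoting complex marks the cyclins and securin for destruction. Most of the mRNAs involved accumulate in G2 and mitosis and are low in resting and G1 cells, and their level in a culture is commonly used as a readout of proliferation. Many of their promoters carry a CHR element (cell cycle genes homology region) near the transcript start, usually with CCAAT boxes bound by NF-Y. The CHR element is bound by the MuvB proteins, which repress as part of the DREAM complex in resting cells or downstream of p53 and its target CDKN1A, and which activate together with B-MYB and FOXM1 in G2. In RNA from a whole culture, fewer dividing cells and less mRNA per dividing cell cannot be told apart.

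Promoter stretches of 5 of the genes are printed because they show the CHR element and the CCAAT box in different arrangements. The levels of these genes, all but CCNB2, are also followed through the groups. Each run holds 150 bases, 120 before the RefSeq transcript start and 30 from it, read 5′ to 3′ on the gene's own strand of GRCh38.p14. Capitals mark a CHR element (TTTGAA or TTTAAA, or TTCAAA where the first lies on the other strand) and a CCAAT box (CCAAT, or ATTGG on the other strand).
CCNB1 (chr5:69167030-69167179, plus strand): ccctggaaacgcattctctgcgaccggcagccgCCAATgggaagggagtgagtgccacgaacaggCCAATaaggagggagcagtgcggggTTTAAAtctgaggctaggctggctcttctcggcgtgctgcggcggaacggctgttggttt
CCNB2 (chr15:59105026-59105175, plus strand): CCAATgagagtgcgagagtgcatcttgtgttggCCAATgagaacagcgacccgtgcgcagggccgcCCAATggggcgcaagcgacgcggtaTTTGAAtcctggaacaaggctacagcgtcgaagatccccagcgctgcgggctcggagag
PLK1 (chr16:23678769-23678918, plus strand): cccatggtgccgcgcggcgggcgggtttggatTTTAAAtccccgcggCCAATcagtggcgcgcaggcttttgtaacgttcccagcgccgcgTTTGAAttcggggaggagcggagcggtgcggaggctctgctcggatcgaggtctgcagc
CDC20 (chr1:43358861-43359010, plus strand): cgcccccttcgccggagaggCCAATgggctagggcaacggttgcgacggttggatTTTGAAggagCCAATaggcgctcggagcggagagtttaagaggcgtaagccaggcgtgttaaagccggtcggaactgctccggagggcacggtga
MKI67 (chr10:128126394-128126543, minus strand): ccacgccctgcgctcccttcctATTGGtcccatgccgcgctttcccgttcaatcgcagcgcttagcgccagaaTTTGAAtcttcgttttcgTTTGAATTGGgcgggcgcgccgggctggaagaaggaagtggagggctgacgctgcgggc
CCNB1, CCNB2 and PLK1 each held a CHR match that began 29 or 30 bases before the start, with 1 CCAAT box upstream of it in PLK1 and more than 1 in each cyclin gene. PLK1 had further CHR matches upstream of its CCAAT box, of which the one printed began 88 bases before the start. CDC20 held a CHR match 65 bases before the start, between a pair of CCAAT boxes. A further CHR match of CDC20, upstream of the printed stretch, began 178 bases before the start. In MKI67 a pair of CHR matches began 47 and 29 bases before the start, and the second ran into a reversed CCAAT box with 1 shared letter.

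Windows of 250 bases before to 50 bases after the start were available in RefSeq for 33 of the 40 genes, as 40 windows, since some genes have several starts. TPX2, TTK, RACGAP1, AURKA, FOXM1, BIRC5 and UBE2C had no window. Each motif was searched on both strands, and matches were free to overlap. A CHR match lay in 33 of the 40 windows (82.5%), against 24.0% of all 35116 windows of that length and 17.1% of the 14978 windows of tested protein-coding genes. By gene, 29 of 33 had one, and AURKB, BUB1, CCNA2 and NEK2 had none under these letters. A CCAAT box lay in 77.5% of the windows, against 34.6% of all windows. Both motifs stood in 65.0% of the windows, against 9.27% of all windows and 6.70% of those of tested coding genes. The E2F site of DNA replication genes (TTTCGCGC or TTTGGCGC) lay in 3 of the 40 windows, or 7.5%, against 1.15% of all windows and 1.70% of those of tested coding genes. By gene these were 2 of 33, NUSAP1 and CDK1, whose windows overlap and hold the same site. In a list of replication and S-phase genes with 37 windows the order of the CHR element and the E2F site was the other way round, with a CHR match in 16.2% and an E2F site in 27.0%, while a CCAAT box was as common as 62.2%. These are counts of letters in a window, and no binding was measured.

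**Figure D1:**
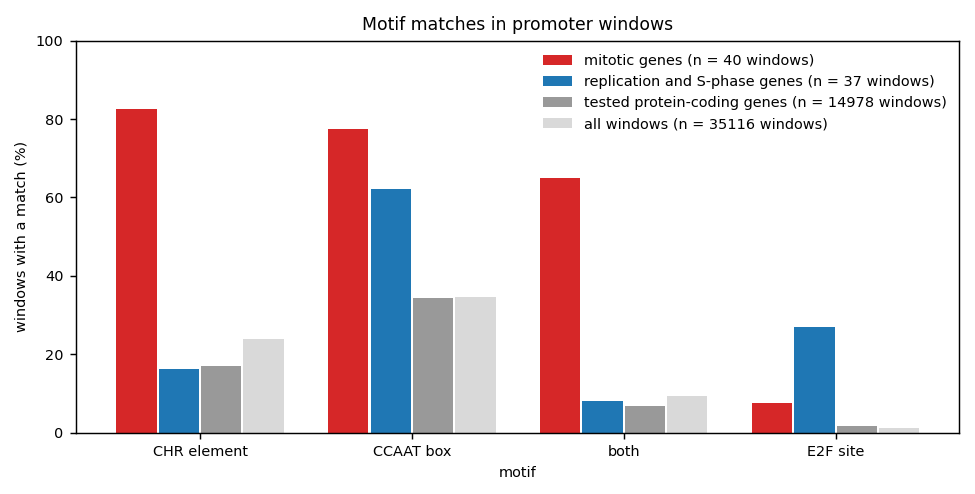
Share of promoter windows (percent, y axis) that hold each motif (x axis), for the mitotic genes, a list of replication and S-phase genes, tested protein-coding genes and all windows. The mitotic genes stand apart in the CHR element, at 82.5% against 24.0% of all windows, and the replication genes in the E2F site, at 27.0% against 7.5% in the mitotic genes.

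Because TPM are shares, transcripts outside the set bear on every value. Mitochondrial mRNAs took 15.8% and 16.7% of the TPM in Control, 2.29% to 7.61% in the gel and 10.4% to 11.1% in both recovered groups. Small-RNA genes took 14.7% in Treated replicate 2, 3.21% in Extracted replicate 1 and at most 1.24% elsewhere. Nuclear protein-coding genes were left with 81.1% and 82.0% in Control, 89.7% to 94.7% in the gel, 84.1% and 87.2% in Extracted, 85.4% in Treated replicate 1 and 73.2% in Treated replicate 2. Counts over the 40 genes are therefore also given with libraries rescaled by the median of ratios. They are given as well after nuclear protein-coding genes had been brought to the same sum in every library. Most counts by role, and those of several lists outside the set, are given only as deposited. All 10 markers of an ovarian epithelial line were present, with EPCAM at 310.5 to 476.0 TPM, PAX8 at 308.6 to 500.5 TPM and WT1 at 13.4 to 61.7 TPM. The summed level of 8 markers of other cells was 10.3 to 22.1 TPM per library, most of it COL1A1 (6.66 to 14.5 TPM) and CD68 (1.12 to 7.46 TPM). PTPRC stayed at or under 0.306 TPM, CD3E was listed at 0 in 9 libraries and COL3A1 in 8.

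The 40 genes were expressed in every group, and as a set they were highest in Control and Extracted cells. Their summed TPM was 3943 and 3841 in Control, 3509 and 3090 at Day1, 3109 and 2945 at Day3, 3763 and 3892 for Extracted cells, and 3160 and 2469 for Treated cells. The Control and Extracted libraries overlapped, and every library of the other 3 groups lay below both of those groups. As a share of nuclear protein-coding TPM, which leaves out the mitochondrial and small-RNA differences, the set held 0.486% and 0.469% in Control, 0.371% and 0.328% at Day1, 0.341% and 0.328% at Day3, 0.448% and 0.446% for Extracted cells, and 0.370% and 0.337% for Treated cells. On that base the Day1, Day3 and Treated libraries overlapped one another, and Extracted fell between them and Control. Within the set, mean levels in Control ran from 12.1 TPM for CDC25C to 711 TPM for PTTG1. CDC25C is a phosphatase that activates CDK1, and PTTG1 is the securin, a substrate of the anaphase-promoting complex. Of the 40 genes, 28 had their lowest group mean in Treated, 10 on Day3, and 1 each on Day1 (AURKB) and in Extracted (CDC25C). The highest mean was in Control for 23 and in Extracted for 13. Replicate 2 was lower than replicate 1 in 39 of the 40 genes in Day1 and in Treated, in 34 in Day3, in 28 in Control and in 14 in Extracted, so the spread within groups was shared by the set, most of all in Day1 and Treated, and is not independent from gene to gene.

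**Figure D2:**
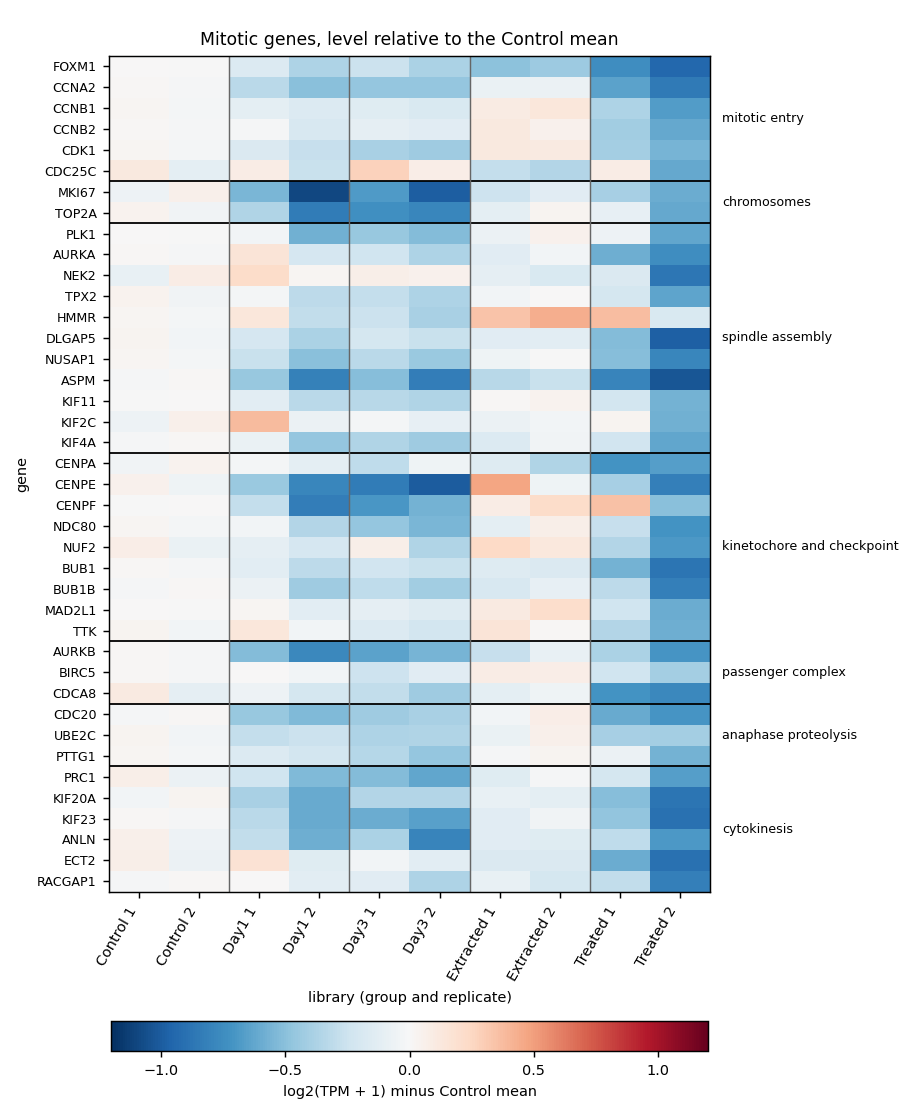
Level of each of the 40 genes (rows, grouped by role) in each of the 10 libraries (columns), as log2(TPM + 1) minus the Control mean. Blue is below the Control mean and red above it. Extracted libraries stay near the Control colour in most rows, MKI67 and TOP2A are darker in the gel than in the other libraries of their rows on average, and Treated replicate 2 is blue in all 40 rows.

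Immobilization in gel went with lower mitotic mRNA after 24 hours, and among the genes that passed the test MKI67, AURKB, ASPM and TOP2A had the largest fold changes. On Day1, 10 of the 40 genes fell against Control and 0 rose, where 6.28% of all tested genes were called lower and 14.4% higher. Calls are from limma on log2(TPM + 1) over all genes at an adjusted p under 0.05, and fold changes are log2, first group minus second. The median fold change of the 40 genes was -0.23, beside 0.12 over all tested genes. By role, calls lower numbered 2 of 2 genes of chromosome structure, 2 of 3 of anaphase proteolysis, 2 of 6 of cytokinesis, 1 of 3 of the chromosomal passenger complex, 2 of 11 of spindle assembly, 1 of 6 of mitotic entry and 0 of 9 of the kinetochore and checkpoint. Whether the roles differ in this was not tested. At an unadjusted p under 0.05, 2 of the 9 kinetochore genes passed, and rescaled 3 were called by the median of ratios and 5 over nuclear coding genes.

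MKI67, the coat protein of mitotic chromosomes that is stained as Ki-67, was at 62.1 and 67.9 TPM in Control, at 44.2 and 30.01 TPM on Day1 and at 40.1 and 32.2 TPM on Day3. Its gel libraries all lay below Control and did not differ by day beyond their own spread. The fold change was -0.82 ± 0.18 (SE, n = 2 per group, adjusted p = 0.0116) on Day1 and -0.84 ± 0.18 (adjusted p = 0.0194) on Day3 with limma. TOP2A, the topoisomerase that untangles sister DNA, stood at 96.2 and 90.4 TPM in Control, 72.2 and 51.8 TPM on Day1, and 55.7 and 53.7 TPM on Day3. The Day3 pair lay close together at the lower end of the Day1 range, and the fold changes were -0.60 (adjusted p = 0.0427) and -0.76 (adjusted p = 0.0303). Without Day1 replicate 2 the Day1 fold change was -0.36 and not called.

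Among the genes of anaphase, CDC20, the activator of the anaphase-promoting complex, was at 122 and 124 TPM in Control, 89.6 and 84.9 TPM on Day1, and 91.6 and 94.2 TPM on Day3. Replicates lay close together in each of these groups and well apart from Control, with fold changes of -0.49 ± 0.09 (SE, adjusted p = 0.00572) and -0.40 ± 0.09 (SE, adjusted p = 0.0236). UBE2C, the ubiquitin-conjugating enzyme of that complex, fell by 0.27 on Day1 and by 0.36 on Day3, from 362 and 345 TPM to 289 and 296 TPM and then 274 and 275 TPM. PTTG1, their substrate, was not called, at fold changes of -0.19 (adjusted p = 0.36) and -0.40 (adjusted p = 0.0996).

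In the chromosomal passenger complex, which corrects faulty attachments and later guides the cleavage furrow, the kinase AURKB was the one called in the gel among the 3 members listed here, AURKB, BIRC5 and CDCA8. INCENP, a subunit outside the 40 genes, was called lower as well (-0.58 on Day1 and -0.60 on Day3). AURKB was at 59.2 and 58.0 TPM in Control, 40.6 and 33.8 TPM on Day1 and 37.2 and 39.6 TPM on Day3. No gel library of AURKB came near Control. The fold changes of AURKB were -0.65 (adjusted p = 0.0108) and -0.60 (adjusted p = 0.0263). BIRC5, the survivin subunit of the same complex, had 72.1 and 70.3 TPM on Day1 against 72.3 and 71.2 TPM in Control, a fold change of -0.01.

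The cytokinesis genes called on Day1 were the kinesins KIF20A (-0.50) and KIF23 (-0.46). KIF23, a motor of the midzone where the spindle is bundled before the cut, had 80.5 and 79.0 TPM in Control, 63.7 and 52.1 TPM on Day1, and 52.4 and 50.4 TPM on Day3. On Day3 KIF23 (-0.62, adjusted p = 0.0276) was called with PRC1 (-0.57, adjusted p = 0.0467), which crosslinks the midzone microtubules, and KIF20A was not (-0.35). ECT2, which activates the contractile ring, was at 84.8 and 77.2 TPM in Control and at 91.3 and 72.9 TPM on Day1, so that the groups overlapped.

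For entry into mitosis, CCNA2, the cyclin of S phase and early mitosis, fell from 73.2 and 72.0 TPM in Control to 57.7 and 51.0 TPM on Day1 (-0.41, adjusted p = 0.0219) and 52.3 and 52.3 TPM on Day3 (-0.47, adjusted p = 0.0245). CDK1 was at 133 and 129 TPM in Control, 116 and 108 TPM on Day1 and 99.8 and 97.5 TPM on Day3, and was called on Day3 (-0.41, adjusted p = 0.0237) but not on Day1 (-0.23, adjusted p = 0.105). CCNB1, the partner of CDK1, lay at 201 and 194 TPM in Control against 182 and 176 TPM on Day1 and 178 and 174 TPM on Day3. These changes of -0.14 and -0.17 did not pass the test (adjusted p = 0.370 and 0.349). FOXM1, the transcription factor of the G2 programme, was not called either, at -0.27 (adjusted p = 0.111) and -0.32 (adjusted p = 0.0957).

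Of the spindle and kinetochore genes, ASPM, a protein of the spindle poles, fell from 19.2 and 19.5 TPM in Control to 13.8 and 10.6 TPM on Day1 (-0.64, adjusted p = 0.0205) and 13.2 and 10.5 TPM on Day3 (-0.67, adjusted p = 0.0282). NUSAP1, which bundles spindle microtubules and is the highest of the spindle genes, was called on Day1 (-0.38, adjusted p = 0.0440) and had the same fold change of -0.38 on Day3 without a call. CENPE, a kinetochore motor that brings chromosomes to the spindle equator, had 18.8 and 17.4 TPM in Control, 12.98 and 10.1 TPM on Day1, and 9.65 and 8.56 TPM on Day3. Its Day3 fold change of -0.92 ± 0.20 (SE, adjusted p = 0.0232) was the largest of the 40 genes in that comparison, and its Day1 fold change of -0.61 was not called. PLK1, a kinase with roles from centrosome maturation to cytokinesis, was split on Day1, with 80.7 TPM in replicate 1, near Control at 82.7 and 82.6 TPM, and 55.3 TPM in replicate 2. On Day3 it had 60.04 and 57.3 TPM, but its fold change of -0.49 did not pass (adjusted p = 0.149).

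After 3 days, 11 of the 40 genes were called lower and 0 higher against Control, where 4.64% of all genes were called lower and 5.18% higher. The median fold change was -0.36, beside 0.06 over all genes, and 38 of the 40 estimates were negative. Between Day3 and Day1 limma called 0 of the 40 genes in either direction, and 1 passed an unadjusted p under 0.05, where 1.69% of all genes were called lower and 0.659% higher. Rescaling raised the gel counts, in the set and over all genes. By the median of ratios 22 genes fell on Day1 and 25 on Day3, and over nuclear coding genes 28 and 31, with 0 rising in each. Calls lower over all genes went from 952 on Day1 and 703 on Day3 to 1683 and 1138 of 15167 by the median of ratios. Over nuclear coding genes they were 2006 and 1445 of 12944. The Day3 count of 11 went to 0 when any 1 of the 4 Control and Day3 libraries was left out, with 1 library then standing for a group, and to 6 without either Extracted library and 19 without either Treated library. For Day1, 1 gene was left without Control replicate 1 and 0 without Control replicate 2, against 8 without Day1 replicate 1, 3 without Day1 replicate 2, 6 without either Day3 library and 17 without either Treated library. The fold changes kept their direction there, with TOP2A on Day3 at -0.80 to -0.71 and MKI67 on Day1 at -1.09 to -0.55.

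**Figure D3:**
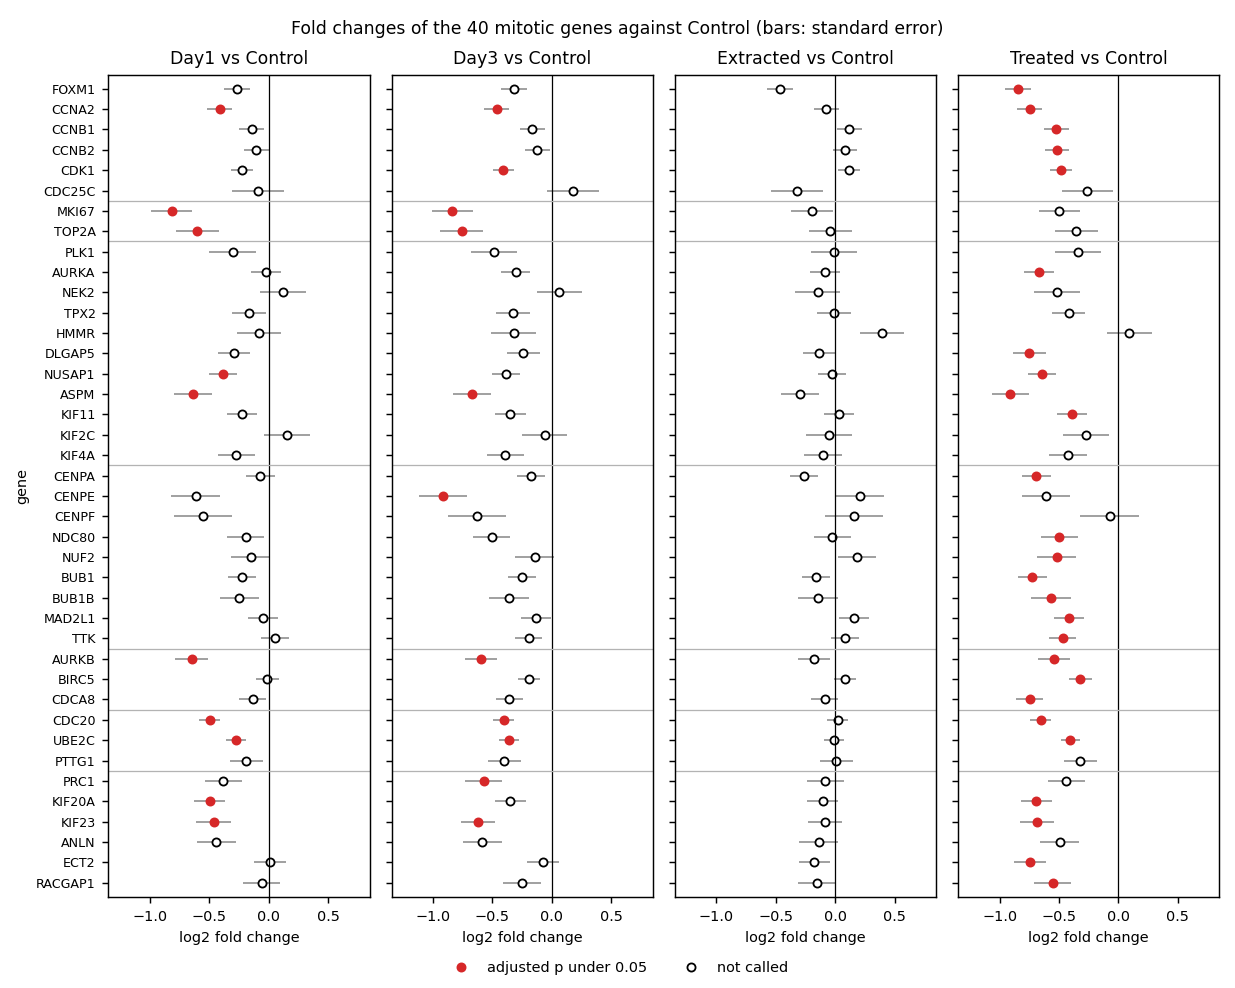
Log2 fold change against Control (x axis, bars are standard errors) of the 40 genes (y axis, ordered by role) in 4 comparisons, filled red where the adjusted p was under 0.05. Filled points number 10 on Day1, 11 on Day3, 0 in Extracted and 26 in Treated, and all of them lie below 0. The 4 panels share the Control libraries.

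As deposited, the cells that had left the gel and recovered held most mitotic mRNAs at levels near those of Control. Against Day3, 9 of the 40 genes rose in Extracted cells and 0 fell, where 6.30% of all genes were called higher and 10.8% lower. The median fold change of the set was 0.32, beside -0.07 over all genes. CENPE rose most, from 9.65 and 8.56 TPM on Day3 to 25.6 and 17.4 TPM (1.13 ± 0.20, SE, adjusted p = 0.00520), and the replicates of Extracted were far apart. TOP2A rose from 55.7 and 53.7 TPM to 86.0 and 95.3 TPM (0.72, adjusted p = 0.0240), and MKI67 from 40.1 and 32.2 TPM to 54.4 and 59.0 TPM (0.64, adjusted p = 0.0322). CDK1 rose from 99.8 and 97.5 TPM to 143 and 142 TPM (0.53, adjusted p = 0.00435), the smallest adjusted p of the set in this comparison.

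The other genes called higher were KIF23 (0.54), CDC20 (0.43), CCNA2 (0.39), UBE2C (0.36) and HMMR (0.71). HMMR, a receptor for hyaluronan that also acts at the spindle poles, was at 35.1 and 33.9 TPM in Control, 28.7 and 26.1 TPM on Day3 and 44.1 and 47.2 TPM in Extracted, so that the Extracted pair lay above Control as well, without a call there (0.39). CCNB1 was at 178 and 174 TPM on Day3 and at 212 and 218 TPM in Extracted, a fold change of 0.29 that did not pass (adjusted p = 0.0921). PLK1 was at 78.8 and 85.7 TPM in Extracted, across its Control values, with a fold change against Day3 of 0.48 (adjusted p = 0.123). Rescaled, calls higher over all genes went from 955 to 1617 of 15167 by the median of ratios and were 1496 of 12944 over nuclear coding genes. Of the 40 genes, 27 were called higher than Day3 by the median of ratios and 27 over nuclear coding genes. The count was 2 without Day3 replicate 1, Day3 replicate 2 or Extracted replicate 2, 3 without Extracted replicate 1, 6 without either Control library and 19 without either Treated library. CENPE and CDK1 were the genes called in all 4 fits that left out a Day3 or Extracted library.

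Against Control, limma called 0 of the 40 genes in Extracted cells, and 1 passed an unadjusted p under 0.05, where 1.13% of all genes were called lower and 0.857% higher. At shares that low, 0 calls in 40 genes is at the background. Fold changes ran from -0.47 to 0.39 with a median of -0.06, beside -0.02 over all genes. The gene at the lower end was FOXM1, with 62.1 and 64.8 TPM in Extracted against 88.6 and 87.6 TPM in Control. Its fold change of -0.47 ± 0.11 (SE) had an adjusted p of 0.0638. FOXM1 was called lower by the median of ratios (-0.45, adjusted p = 0.0171) and over nuclear coding genes (-0.54, adjusted p = 0.00660), the only one of the 40 genes called under either. Calls lower over all genes were then 308 of 15167 and 798 of 12944. By the median of ratios the set's median was -0.04, with 24 estimates negative and 2 genes at an unadjusted p under 0.05. Over nuclear coding genes it was -0.13, beside -0.08 over all genes, with 30 negative and 7 at that p. FOXM1 shares exon sequence with ITFG2 on the opposite strand, itself at 12.99 to 21.2 TPM, and whether counting used the strand is not given in the sources used here.

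Survivors of cisplatin held less mitotic mRNA than Control after 2 weeks of recovery. Their summed level of 2815 ± 489 TPM (SD, n = 2) was the lowest group mean as deposited, against 3892 ± 71.9 TPM in Control, but as a share of nuclear coding TPM both the Day1 and the Day3 libraries were lower on average. In Treated cells 26 of the 40 genes fell against Control and 0 rose, where 18.2% of all genes were called lower and 6.28% higher. The median fold change was -0.52, beside -0.15 over all genes. By role, calls lower numbered 5 of 6 genes of mitotic entry, 7 of 9 of the kinetochore and checkpoint, 3 of 3 of the passenger complex, 4 of 6 of cytokinesis, 2 of 3 of anaphase proteolysis, 5 of 11 of spindle assembly and 0 of 2 of chromosome structure, where 1 passed an unadjusted p under 0.05.

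FOXM1 fell from 88.6 and 87.6 TPM in Control to 52.1 and 45.4 TPM in Treated (-0.84 ± 0.11, SE, adjusted p = 8.62e-04). CCNA2 fell from 73.2 and 72.0 TPM to 46.1 and 39.8 TPM (-0.75, adjusted p = 0.00121). CCNB1 fell from 201 and 194 TPM to 153 and 123 TPM (-0.52, adjusted p = 0.00711), and CDK1 from 133 and 129 TPM to 98.9 and 88.7 TPM (-0.48, adjusted p = 0.00516). None of these 4 genes had a Treated library within the range of Control.

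Of the spindle genes, ASPM had the largest fold change of the set in Treated, from 19.2 and 19.5 TPM to 10.7 and 8.99 TPM (-0.91, adjusted p = 0.00354). DLGAP5, which stabilizes kinetochore fibres, fell from 97.2 and 92.9 TPM to 65.8 and 47.8 TPM (-0.75, adjusted p = 0.00459). AURKA, the kinase of the spindle poles, fell by 0.67, NUSAP1 by 0.64 and KIF11, the motor that pushes the poles apart, by 0.39. PLK1 was not called, since its libraries stood at 79.2 and 53.3 TPM, 1 near Control and 1 far below (-0.34, adjusted p = 0.229).

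At the kinetochore, BUB1, a checkpoint kinase, fell from 47.9 and 47.0 TPM to 31.6 and 25.3 TPM (-0.73, adjusted p = 0.00285). CENPA, the histone that marks the centromere, fell from 34.2 and 36.3 TPM to 21.0 and 21.9 TPM (-0.69, adjusted p = 0.00362). BUB1B, NUF2, NDC80, TTK and MAD2L1 were also called, at -0.57 to -0.42. CENPF, a large protein of the kinetochore, was at 82.3 TPM in Treated replicate 1 and 45.4 TPM in replicate 2, on either side of Control at 64.2 and 64.7 TPM. In the passenger complex CDCA8, the borealin subunit, fell from 41.4 and 35.7 TPM to 23.0 and 22.1 TPM (-0.75, adjusted p = 0.00184), with AURKB at -0.54 and BIRC5 at -0.32, both called.

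ECT2, level with Control in the gel, fell in Treated from 84.8 and 77.2 TPM to 53.4 and 43.1 TPM (-0.74, adjusted p = 0.00432). KIF20A fell by 0.69, KIF23 by 0.69 and RACGAP1, the partner of KIF23, by 0.55. CDC20 fell from 122 and 124 TPM to 80.7 and 75.2 TPM (-0.66, adjusted p = 0.00112) and UBE2C by 0.40. MKI67 and TOP2A, both called in the gel, were not called here. MKI67 had 49.2 and 42.5 TPM in Treated (-0.50, adjusted p = 0.0648), below both Control libraries. TOP2A had 87.1 and 60.7 TPM (-0.35, adjusted p = 0.182), with replicate 1 close to Control.

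Treated replicate 2, the library with 14.7% of its TPM in small-RNA genes, was the lower of its pair in 39 of the 40 genes. Rescaled by the median of ratios 21 genes were called lower than Control, and over nuclear coding genes 34. Calls lower over all genes went from 2762 to 1777 of 15167 and to 3024 of 12944 under the same scalings. The set's median relative to that of all genes was -0.37 as deposited and -0.35 under either rescaling. Without Treated replicate 2 the set's median fold change was -0.36, beside -0.06 over all genes. Without Treated replicate 1 it was -0.68, beside -0.24. It was -0.50, beside -0.16, without Control replicate 1, and -0.54, beside -0.13, without Control replicate 2. The number of calls moved with the library left out, in the set and over all genes alike. Called in all 4 of these fits were 13 of the 26 genes, namely FOXM1, CCNA2, CDK1, AURKA, DLGAP5, NUSAP1, ASPM, CENPA, BUB1, CDCA8, CDC20, KIF20A and ECT2. Without Treated replicate 2 the fold changes of KIF11 (-0.22), NDC80 (-0.28), BUB1B (-0.31), MAD2L1 (-0.24) and RACGAP1 (-0.29) were over 1.5 times smaller and not called.

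Set against Extracted, the other group with 2 weeks of recovery, Treated cells had 21 of the 40 genes called lower and 0 higher, where 8.87% of all genes were called lower and 3.24% higher. The median was -0.43, beside -0.13 over all genes. The largest fold change was that of CENPE (-0.82, adjusted p = 0.0309), followed by NUF2, which with NDC80 binds microtubule ends, at -0.70 (adjusted p = 0.0251), and CDC20 at -0.68 (adjusted p = 0.00292). CCNB1 stood at 212 and 218 TPM in Extracted and at 153 and 123 TPM in Treated (-0.64, adjusted p = 0.00810). CDK1 stood at 143 and 142 TPM against 98.9 and 88.7 TPM (-0.60, adjusted p = 0.00572). FOXM1 was at -0.38 (adjusted p = 0.0514), and MKI67 and TOP2A at -0.30 and -0.31, none of them called. Calls lower over all genes went from 1345 to 785 of 15167 by the median of ratios and were 1083 of 12944 over nuclear coding genes. The count of the set was 18 by the median of ratios and 20 over nuclear coding genes. It fell to 1 without Extracted replicate 1, to 0 without Extracted replicate 2 and to 8 without Treated replicate 2, and it was 34 without Treated replicate 1. Without Treated replicate 2, DLGAP5 and KIF23 went from -0.62 and -0.60 to -0.39 each.

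**Figure D4:**
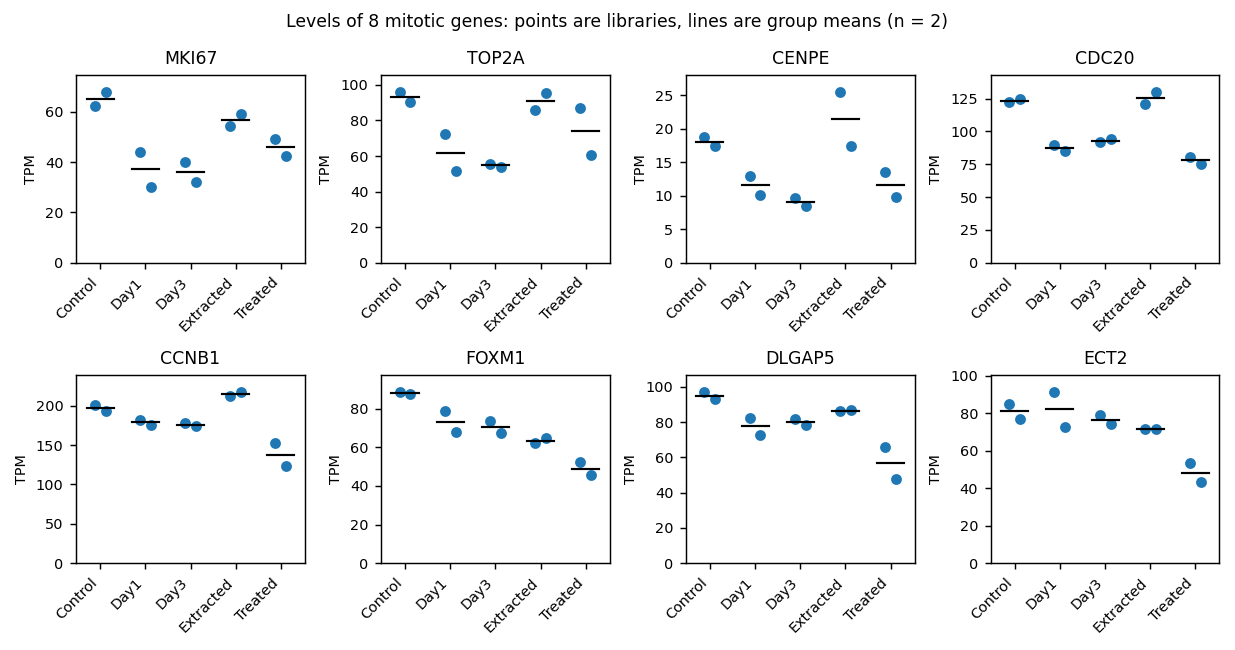
TPM (y axis) of 8 genes in the 5 groups (x axis), with points for libraries and lines for group means (n = 2). MKI67, TOP2A and CENPE are lowest on Day1 or Day3, while CCNB1, FOXM1, DLGAP5 and ECT2 are lowest in Treated, and CDC20 is low in both.

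Day3 and Treated held similar summed shares, and a comparison of these groups, which share no library, was added after the values had been seen. Of the 40 genes 10 were called lower in Treated and 0 higher, where 26.6% of all genes were called lower and 8.34% higher, so the share of the set was at the background. The genes called were ECT2 (-0.66), NEK2, a centrosome kinase (-0.58), FOXM1 (-0.52), CENPA (-0.51), DLGAP5 (-0.51), BUB1 (-0.47), CCNB2 (-0.39), CDCA8 (-0.39), AURKA (-0.36) and CCNB1 (-0.36). ECT2 was at 79.1 and 74.1 TPM on Day3 and at 53.4 and 43.1 TPM in Treated (adjusted p = 0.00469). The median of all genes was -0.20 in this comparison, so that scaling decides directions. By the median of ratios 4 genes were lower (FOXM1, DLGAP5, BUB1 and ECT2) and 6 higher (MKI67, TOP2A, HMMR, CENPF, PTTG1 and PRC1). Over nuclear coding genes the same 4 were lower, and 5 were higher, the 6 less PRC1. Over all genes 2196 were lower and 2279 higher of 15167 by the median of ratios. Of 12944 nuclear coding genes 2391 were lower and 1908 higher, so the rescaled shares of the set were no higher than the background. MKI67 was at 0.34 as deposited (adjusted p = 0.159) and TOP2A at 0.40 (adjusted p = 0.111). Without Treated replicate 1, 21 genes were called lower, and without Treated replicate 2, 3 lower and 4 higher. Without Day3 replicate 1 or Day3 replicate 2, 2 and 3 were called lower. NEK2 was at -0.23 without Treated replicate 2 and at -0.92 without Treated replicate 1, and without Treated replicate 2 DLGAP5 was at -0.28 and CCNB1 at -0.20.

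Ratios of 2 genes within a library do not depend on its scaling. MKI67 over CCNB1 was 0.308 and 0.351 in Control, 0.243 and 0.170 at Day1, 0.225 and 0.185 at Day3, 0.257 and 0.271 for Extracted cells, and 0.322 and 0.345 for Treated cells. All 4 gel libraries lay below the other 6, and Treated lay within Control. TOP2A over CCNB1 was 0.478 and 0.467 in Control, 0.294 to 0.397 in the gel, 0.406 and 0.438 in Extracted, and 0.571 and 0.492 in Treated, where both libraries were above Control. FOXM1 over CCNB1 was 0.440 and 0.452 in Control, 0.387 to 0.432 in the gel, 0.293 and 0.298 in Extracted, and 0.342 and 0.368 in Treated. Both recovered groups lay below all other libraries in this ratio. ECT2 over CCNB1 was 0.399 and 0.421 in Control, 0.414 to 0.502 in the gel, 0.329 and 0.338 in Extracted and 0.350 in both Treated libraries. These ratios were chosen after the values had been seen and carry no test.

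**Figure D5:**
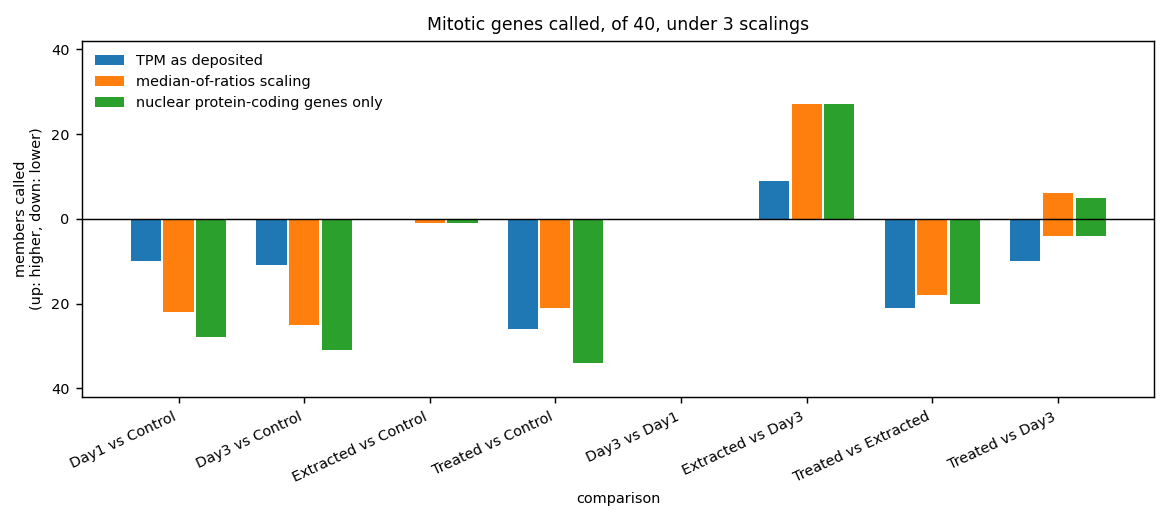
Number of the 40 genes called (y axis, higher above 0 and lower below 0) in 8 comparisons (x axis) under 3 scalings of the libraries. The gel counts rise from 10 and 11 to 22 to 31 when libraries are rescaled, the Extracted against Control count is 0 or 1, and Treated against Day3 has calls in both directions once rescaled. Calls over all genes, not drawn here, shift with the scaling as well.

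Other genes of the division machinery are given from lists outside the 40. Their counts read against the shares over all genes given above, each against Control: 6.28% lower and 14.4% higher for Day1 cells, 4.64% and 5.18% for Day3 cells, and 18.2% and 6.28% for Treated cells. By the median of ratios the calls over all genes in Treated went from 2762 lower and 953 higher to 1777 and 1853. On Day1 they went from 952 lower and 2180 higher to 1683 and 1632. Over nuclear coding genes, of 12944 tested, they were 2006 and 1044 on Day1 and 3024 and 1312 in Treated. CDKN1A, the p21 inhibitor of cyclin-dependent kinases that acts upstream of DREAM, was at 3.45 and 5.69 TPM in Control, 22.4 and 19.5 TPM on Day1, 9.85 and 10.7 TPM on Day3, 2.65 and 2.76 TPM in Extracted, and 6.01 and 5.21 TPM in Treated. It rose on Day1 (2.00, adjusted p = 2.36e-04) and on Day3 (1.05, adjusted p = 0.0103), was lower on Day3 than on Day1 (-0.96, adjusted p = 0.0320), and was not called in Treated against Control (0.27, adjusted p = 0.311). In the list of 11 arrest genes, calls against Control were 3 higher on Day1, 1 higher and 1 lower on Day3, 1 higher in Extracted and 1 higher and 2 lower in Treated. The 2 lower in Treated were at the share over all genes. Beside CDKN1A, the genes called in this list included CDKN2B, an inhibitor of CDK4 and CDK6, at 0.83 on Day1, and GADD45A, a stress-response gene, at -0.81 on Day3. CDKN1C, the p57 inhibitor, rose in Extracted (0.61, adjusted p = 0.0294) and in Treated (0.86, adjusted p = 8.95e-04).

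Of 7 other mitotic kinesins, 2 fell on Day1, 1 on Day3 and 4 in Treated. KIF18B, which shortens astral microtubules, had 26.3 and 26.7 TPM in Control, 17.3 and 14.4 TPM on Day1, 15.4 and 13.9 TPM on Day3, 20.1 and 19.6 TPM in Extracted and 15.0 and 13.9 TPM in Treated, and was called lower in the gel and in Treated. The Treated count of this list was 4 by the median of ratios and 5 over nuclear coding genes. KIFC1, which clusters centrosomes, fell in Treated (-1.04, adjusted p = 8.71e-04). Among 11 tubulins and tubulin-binding genes, 6 fell on Day1, 3 on Day3, 1 in Extracted and 9 in Treated. TUBB, a beta-tubulin of interphase and mitosis alike, fell in Treated by 1.04 to 558 and 581 TPM from 1180 and 1161 TPM, and TUBA1A, an alpha-tubulin, by 1.27 to 137 and 124 TPM from 324 and 309 TPM.

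Of 25 other kinetochore and checkpoint genes, 3 fell and 1 rose on Day1, 2 fell and 1 rose on Day3, and 8 fell in Treated. The rises were no more frequent than over all genes. KNTC1, a checkpoint subunit, was at -0.70 on Day1 and -0.92 on Day3. INCENP, the scaffold of the passenger complex, was at -0.58 on Day1, -0.60 on Day3 and -0.88 in Treated. Of 13 cohesin and separase genes, 1 fell on Day1, 1 on Day3 and 5 in Treated, and the gel counts were near the shares over all genes. The gene called on both days was ESPL1, the separase that cuts cohesin at anaphase, at -0.83 on Day1 and -0.61 on Day3. Of 8 condensin genes, 1 fell on Day1 and on Day3 (NCAPH2, -0.60 and -0.53) and 5 in Treated, led by NCAPD2 (-0.84). Core subunits and partners of the anaphase-promoting complex, 17 genes, were called in both directions on Day1, with 2 lower and 3 higher, against 4 lower and 0 higher in Treated. On Day1 the rises were near the share over all genes and the falls little above theirs. That Day1 split became 4 lower and 4 higher by the median of ratios and 6 lower and 0 higher over nuclear coding genes, and the Treated count, near the share over all genes, became 2 and 5. UBE2S, which extends its ubiquitin chains, was lower on Day1 (-0.44) and Day3 (-0.55) and higher in Extracted than on Day3 (0.72, adjusted p = 0.00570).

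Of 14 other kinases and phosphatases of mitotic entry, 1 fell and 3 rose on Day1, among them the phosphatase CDC25B at 0.50 (adjusted p = 0.00620) and the CDK subunit CKS1B at 0.47, while 8 fell and 1 rose in Treated. On Day3, 1 rose (ENSA, 0.41) and 0 fell, and CDC25B was at -0.03 against Control and lower than on Day1 (-0.53, adjusted p = 0.0212). Rescaled, 4 of these 14 fell and 2 rose on Day1 under either scaling. Of 12 genes of the DREAM and MuvB complexes themselves, 0 fell and 1 rose on Day1 (LIN54, 0.63), limma called 0 on Day3, with 2 at an unadjusted p under 0.05, and 7 fell in Treated, led by LIN9 (-0.78). On Day1, 2 of these 12 fell when rescaled, and the rise was called by the median of ratios and not over nuclear coding genes. As deposited, 1 rise in 12 was below the share over all genes. In a list of 14 centriole genes limma called 0 on Day1 and on Day3, with 4 and 5 at an unadjusted p under 0.05, and 3 lower in Treated, near the share over all genes, or 1 and 5 under the same rescalings. Replication and S-phase genes, 32 in number, fell for 8 on Day1, 4 on Day3 and 20 in Treated, among them LIG1, the ligase of lagging-strand synthesis, on Day1 (-0.90, adjusted p = 0.00186) and MCM4, a helicase subunit, in Treated (-0.77, adjusted p = 0.00335). Their Day1 count was 16 by the median of ratios and 21 over nuclear coding genes, their Day3 count 11 and 16, and their Treated count 14 and 22. Against Control, limma called 0 genes in Extracted in 9 of these 11 lists, with 1 to 4 genes of each at an unadjusted p under 0.05, and the exceptions were TUBB (-0.47) and CDKN1C.

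Transcript length was set beside the fold changes after they had been seen. The 4 longest members, by the longest annotated transcript in nucleotides, are MKI67 (12678), ASPM (10887), CENPF (10307) and CENPE (8612). Their median fold change was -0.63 on Day1 and -0.76 on Day3, against 0.10 and -0.01 over all 1128 coding genes of that length. Over the 40 genes, Spearman's rho between fold change and length was -0.32 on Day1, -0.36 on Day3, 0.29 for Extracted against Day3 and 0.05 for Treated against Control. Over 12937 tested coding genes it was -0.07, -0.19, 0.03 and -0.21. These are descriptions across genes of the same libraries, and the part of length in the results was not tested.

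Exons on the opposite strand also bear on some other values, since the strand setting is not known. CCNA2 overlaps EXOSC9 (37.4 to 57.5 TPM), KIF20A overlaps BRD8 (34.2 to 57.2 TPM) and CDC23 (26.3 to 51.0 TPM), KIF4A overlaps PDZD11 (70.7 to 98.5 TPM), CDC25C overlaps FAM53C (19.9 to 50.1 TPM), ANLN overlaps KIAA0895 (7.23 to 24.4 TPM), and NUF2 overlaps RGS5 (2.33 to 7.28 TPM). The near-identical copies KIF4B, PTTG2 and PTTG3P stayed at or under 0.142, 0.619 and 0.337 TPM. In 8 of the 40 genes limma made no call in any of the 8 comparisons as deposited, namely ANLN, CDC25C, CENPF, KIF2C, KIF4A, PLK1, PTTG1 and TPX2. TPX2, which carries AURKA to the spindle, fits that description with 148 and 140 TPM in Control, 111 to 142 TPM in the gel, 141 and 144 TPM in Extracted and 124 and 92.6 TPM in Treated.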

How the data were processed

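The authors deposited one table of TPM for 10 libraries of OVCAR-3 cells, and the submitters' processing notes name Trimmomatic, STAR and Cufflinks, while versions, strand setting and annotation were not given in the sources used here. Deposited TPM are shares without read counts, so the depth of every library is unknown. TPM were summed over 91 repeated identifiers, and GENCODE release 29 (GRCh38) gave biotypes, positions and lengths. Genes at 1 TPM or more in at least 2 libraries were fitted on log2(TPM + 1), with a pseudocount of 1, in limma 3.58.1 (R 4.3.3), with a mean-variance trend, all 10 libraries in 1 fit and 5 residual degrees of freedom. Tests were two-sided, with Benjamini-Hochberg adjustment over all 15167 genes. They were also run on simulated data in which genes varied independently, which does not cover the spread shared by the set. Fold changes on this scale understate those of low genes. The members, roles and other lists were chosen with earlier results of these data known. Named were the 10 called members with the largest fold change per comparison, MKI67, TOP2A, FOXM1, CCNB1, CDK1 and PLK1 throughout, the highest member of each role, CDKN1A, and up to 2 called genes of each other list. Other genes named were chosen after their values were seen. Promoter windows are from RefSeq (GRCh38.p14), searched in Python 3.11.15. Alternatives tried were the pseudocount 0.1, filtering at 5 TPM or not at all, 2 rescalings, fitting only the 2 groups compared, blocking on replicate number, and leaving out each library.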

Additional observations from a re-analysis of the deposited data

How the results depend on the processing

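No called fold change of a named member changed sign to a called value in the other direction under any alternative. Over the named members and alternatives, 1856 fold changes kept their side of the threshold, 286 lost a call and 102 gained one. Without a filter, 4 genes were called lower on Day1 and 4 on Day3 against Control, 5 higher in Extracted against Day3 and 11 lower in Treated against Extracted. A fit of the 2 compared groups alone gave 4 lower on Day1, 25 on Day3, 1 in Extracted and 12 in Treated against Control, 1 lower and 23 higher in Extracted against Day3, 0 lower in Treated against Extracted and 3 lower in Treated against Day3. By the median of ratios the counts were 22 lower on Day1, 25 on Day3 and 1 in Extracted against Control, 27 higher in Extracted against Day3, and 4 lower and 6 higher in Treated against Day3. Over nuclear coding genes they were 28, 31 and 1 lower, 27 higher, and 4 lower and 5 higher. Calls over all genes under both scalings are given with each comparison above. A filter at 5 TPM gave 1 lower in Extracted against Control. With each library left out in turn, counts of genes called lower ranged from 0 to 17 on Day1, 0 to 19 on Day3, 0 to 1 in Extracted and 13 to 37 in Treated against Control, from 0 to 34 in Treated against Extracted and from 2 to 21 in Treated against Day3. Genes called higher ranged from 2 to 19 in Extracted against Day3 and from 0 to 4 in Treated against Day3. The cause of these shifts was not tested, apart from the library lost to the fit. Over all tested genes, deviations of same-numbered libraries from their group means correlated between -0.02 and 0.09. These values showed no pairing by replicate number over all genes, and pairing within the set alone was not examined. With a replicate block, 11 genes were called lower on Day1, 13 on Day3 and 30 in Treated against Control, 13 higher in Extracted against Day3, 21 lower in Treated against Extracted and 11 in Treated against Day3. Depth is unknown, so counting error could not be set apart from the spread of replicates, and 2 libraries per group allow no test for a deviating replicate.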
